A study of Rattus norvegicus with 4 samples.

Results

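The GABA-A receptor subunit genes described here are Gabra2, Gabra3, Gabra4 and Gabra5, which encode alpha subunits, Gabrb1 and Gabrb2, which encode beta subunits, and Gabrg3, which encodes a gamma subunit. These 7 genes were taken by their symbols from the 14497 genes with a single symbol in the annotation of the array, and each of the 7 was read by 1 probe set. The RNA came from primary cultures of embryonic rat hippocampal neurons and was profiled on whole-transcript arrays, in 2 cultures transduced with an shRNA against Gld2 and in 2 cultures transduced with a scrambled control shRNA. Gld2, with the gene symbol Tent2, is an enzyme that adds adenosines to the poly(A) tails of certain mRNAs outside the nucleus. All 4 RNA samples were selected on poly(U) Sepharose and eluted thermally before labelling, so both groups carry that selection. The sources used here do not give the strain, the vector, the promoter of the shRNA, the age of the cultures, or whether replicate cultures were prepared separately. The p-values therefore rest on the variation among these cultures, which may be technical.

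GABA-A receptors are the chloride channels that open when the transmitter GABA binds, and in mature neurons they carry most fast inhibition in the brain. Each receptor is a ring of homologous subunits, usually alpha and beta subunits together with a gamma or a delta subunit. The alpha subunit shapes the response to GABA and to benzodiazepines, the beta subunit is needed for assembly and helps form the GABA site, and the gamma subunit helps hold receptors at synapses. In the hippocampus the alpha 5 subunit is abundant and is known for receptors outside the synapse, alpha 2 for synaptic receptors of pyramidal cells, and alpha 4 for receptors that respond to ambient GABA.

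Gabrg3 and Gabrb2 fell in the Gld2 shRNA cultures, and the other 5 genes did not pass the test. Gabrg3 stood at 66.9% and Gabrb2 at 73.3% of the scrambled shRNA level, whereas the other 5 had values between 88.9% and 97.1% of it. A change was called at an adjusted p under 0.05, from limma moderated tests of all 14497 genes with Benjamini-Hochberg adjustment. Lower genes made up 2.41% of all genes and higher genes 1.69%, against 2 lower and 0 higher among the 7 subunit genes. The number of arrays limits the precision, and no detection calls were among the sources used here. A lower amount of a transcript, a lower recovery of it from poly(U) Sepharose, and fewer cells that express it all give the same kind of difference here and cannot be told apart.

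Across the whole series, 349 genes were lower and 245 higher in the Gld2 shRNA cultures. The split moved with the scaling, to 1367 lower and 558 higher with each array centred on its median, to 94 lower and 218 higher with each array centred on the median of the genes tested, and to 246 lower and 266 higher with the gene-length trend removed from the values. The shRNA target itself, Tent2, had 9.50 and 9.35 log2 units in the Gld2 shRNA cultures, against 10.73 and 10.67 in the scrambled shRNA cultures, which is 41.1% of the control level (limma, adjusted p = 0.000754, and 0.2205 without moderation across genes). Array medians ran from 8.41 to 8.48. Pearson's r between arrays over all probe sets, given as a description, was 0.9963 and 0.997 within the groups and 0.9888 to 0.9929 between them.

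**Figure D1:**
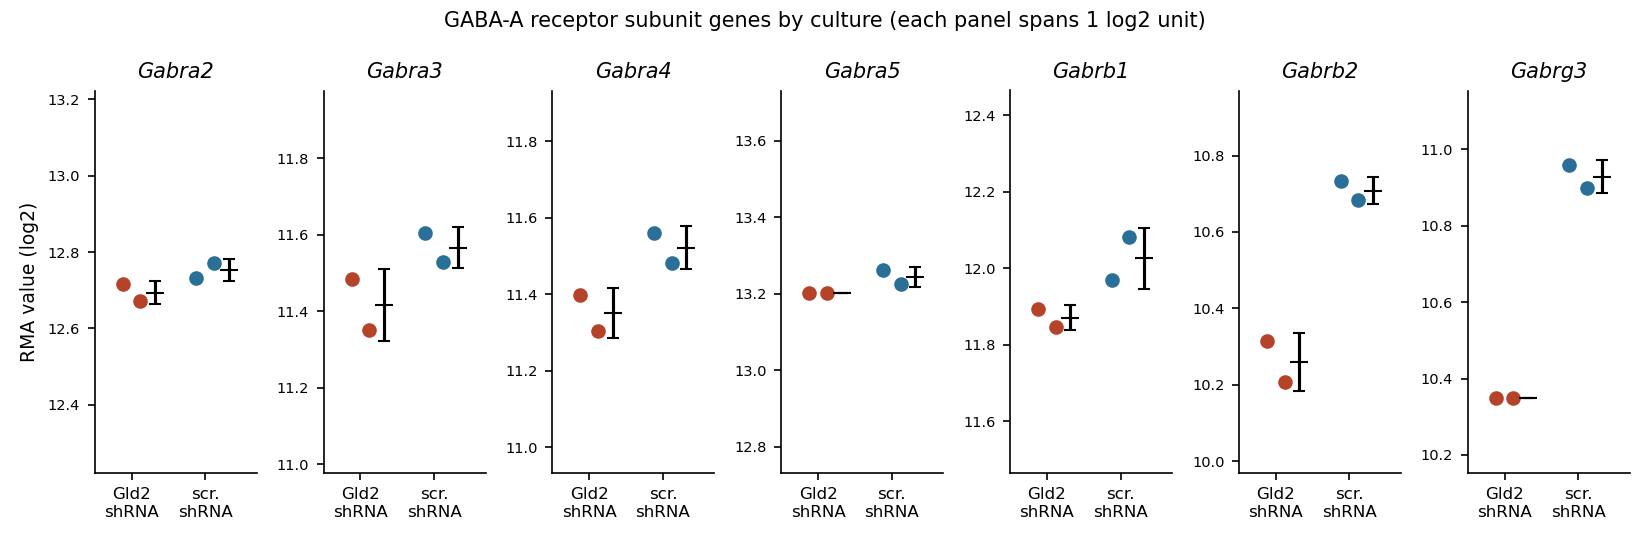
RMA values (log2, vertical axis, each panel spanning 1 log2 unit) of the 7 subunit genes in the 2 Gld2 shRNA cultures (red) and the 2 scrambled shRNA cultures (blue, marked scr.), with mean and SD beside the points. Gabrg3 and Gabrb2 show the widest gaps between the groups, and in the panel of Gabra5 the cultures lie close together.

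Gabrg3 encodes the gamma 3 subunit, a less common relative of the gamma subunit of most synaptic receptors. It stood at 10.35 and 10.35 log2 units in the Gld2 shRNA cultures, against 10.96 and 10.90 in the scrambled shRNA cultures. Both Gld2 shRNA cultures were low and nearly equal, and the groups were separated by a gap of 0.55. Gld2 shRNA cultures averaged 10.35 ± 0.00105 log2 units and scrambled shRNA cultures 10.93 ± 0.0423 (SD, n = 2 each). The log2 difference was -0.58 (standard error 0.0612) with 95% confidence limits of -0.73 and -0.43, a 1.49-fold fall (limma, adjusted p = 0.00917). It was the 79th lowest difference of the 14497 genes. The differences of the single Gld2 shRNA cultures from the control mean were equal after rounding, -0.58 in replicate 1 and -0.58 in replicate 2. Without scrambled shRNA replicate 1 or replicate 2 the difference was -0.55 or -0.61. The call was lost in those fits, which take the spread of every gene from the Gld2 shRNA cultures alone. Few genes of the whole array were called lower in them, so the loss was not particular to Gabrg3. Its call was also lost without moderation across genes (limma, adjusted p = 0.215).

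Gabrb2 encodes the beta 2 subunit, which forms with alpha 1 and gamma 2 the most common receptor of the adult brain. It stood at 10.31 and 10.21 log2 units in the Gld2 shRNA cultures, against 10.73 and 10.68 in the scrambled shRNA cultures. Replicate 2 was the lower of the Gld2 shRNA cultures, and the groups were separated by a gap of 0.37. Gld2 shRNA cultures averaged 10.26 ± 0.0757 log2 units and scrambled shRNA cultures 10.71 ± 0.0354 (SD, n = 2 each). The log2 difference was -0.45 (standard error 0.068) with 95% confidence limits of -0.61 and -0.28, a 1.36-fold fall (limma, adjusted p = 0.0309). Fewer settings kept its call than that of Gabrg3. The adjusted p by limma was 0.0710 without Gld2 shRNA replicate 2, 0.292 without scrambled shRNA replicate 1 and 0.216 without scrambled shRNA replicate 2, with differences of -0.39, -0.42 and -0.47. It was also above 0.05 when all 28826 probe sets were tested (0.0763), without moderation across genes (0.275) and with each array centred on the median of the genes tested (0.0552), again by limma.

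Gabrb1 encodes the other beta subunit measured. It stood at 11.89 and 11.85 log2 units in the Gld2 shRNA cultures, against 11.97 and 12.08 in the scrambled shRNA cultures. The groups did not overlap, and the gap between them was 0.08. Its difference of -0.16, with a 95% confidence interval from -0.32 to 0.01, did not pass the test (limma, adjusted p = 0.219), and it was called lower only in the fit whose prior variance follows the level (adjusted p = 0.0310) among the 15 alternatives.

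Of the alpha subunit genes, Gabra4 had the lowest difference. Gabra4 stood at 11.40 and 11.30 log2 units in the Gld2 shRNA cultures, against 11.56 and 11.48 in the scrambled shRNA cultures. The groups did not overlap. Its difference was -0.17, with a 95% confidence interval from -0.34 to -0.0029, and did not pass (limma, adjusted p = 0.193). As for Gabrb1, the fit whose prior variance follows the level gave a call (adjusted p = 0.0312). Gabra3, whose product is the alpha 3 subunit, stood at 11.48 and 11.35 log2 units in the Gld2 shRNA cultures, against 11.60 and 11.53 in the scrambled shRNA cultures. The difference of Gabra3 was -0.15, with a 95% confidence interval from -0.33 to 0.03 (limma, adjusted p = 0.260), and the spread within the Gld2 shRNA cultures was larger than the gap of 0.04 between the groups.

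Gabra2 and Gabra5, the genes of the alpha 2 and alpha 5 subunits, had the differences nearest to 0. Gabra2 stood at 12.72 and 12.67 log2 units in the Gld2 shRNA cultures, against 12.73 and 12.77 in the scrambled shRNA cultures. Gabra5 stood at 13.20 and 13.20 log2 units in the Gld2 shRNA cultures, against 13.26 and 13.23 in the scrambled shRNA cultures. The groups were just apart for both genes, by 0.02 log2 units each. The difference of Gabra2 was -0.06 with a 95% confidence interval from -0.21 to 0.09 (limma, adjusted p = 0.584). That of Gabra5 was -0.04 with an interval from -0.19 to 0.10 (limma, adjusted p = 0.682). These intervals reach no further down than 0.21 and 0.19 log2 units below the controls, while the end of the Gabrg3 interval nearest to 0 lies 0.43 below them.

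**Figure D2:**
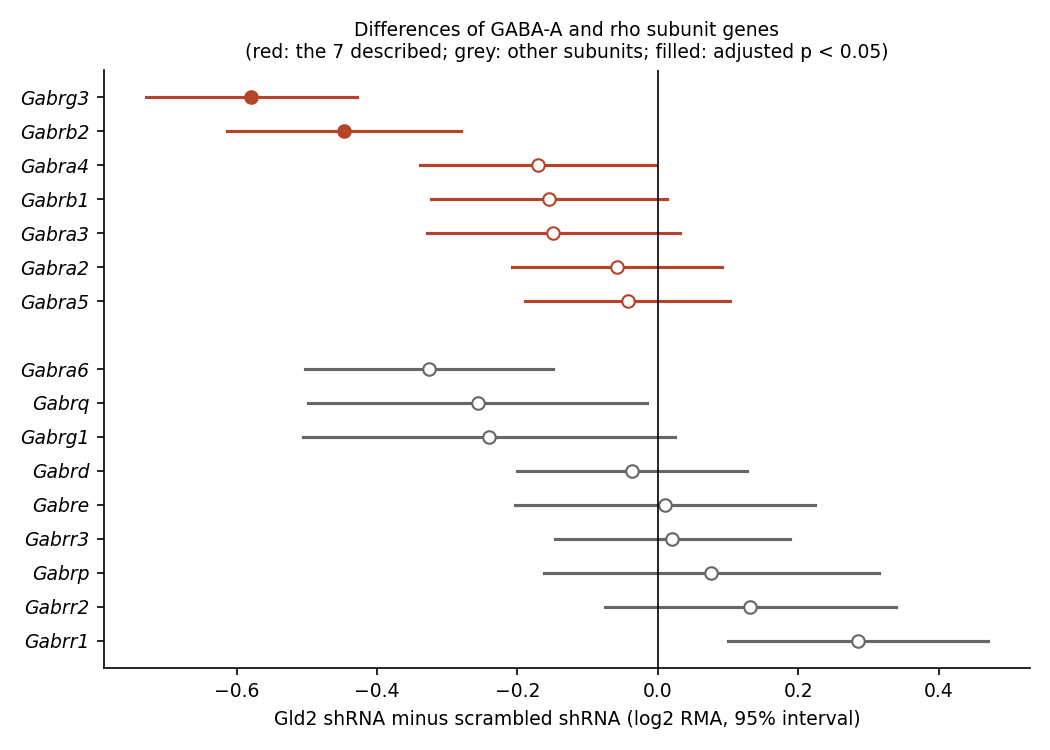
Log2 differences, Gld2 shRNA minus scrambled shRNA (horizontal axis, points, with 95% confidence intervals as lines), for the 7 subunit genes (red) and for 9 other GABA-A and rho subunit genes (grey), filled where the adjusted p was under 0.05. Gabrg3 (-0.58) and Gabrb2 (-0.45) are the filled points, and the intervals of Gabrb2 and Gabra4 overlap.

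In order of difference from the lowest, the genes were Gabrg3, Gabrb2, Gabra4, Gabrb1, Gabra3, Gabra2 and Gabra5. The interval of Gabrg3 overlapped that of Gabrb2 and none of the other 5. The interval of Gabrb2 overlapped those of Gabra4, Gabrb1 and Gabra3, but not those of Gabra2 and Gabra5. Genes of one subunit class were compared as 7 pairs by their log2 ratio within each array, with an exact two-sided permutation test over the 6 ways to divide the arrays, whose smallest possible p is 0.333. The beta pair differed most, with Gabrb1 minus Gabrb2 at 0.29 and the ratios of the groups apart (exact p = 0.333, adjusted p = 0.583 over the 7 pairs). Among the alpha pairs the values ran from -0.13 for Gabra4 minus Gabra5 to 0.11 for Gabra2 minus Gabra4, and the lowest adjusted p of the exact test was again 0.583. The design cannot pass 0.05 in this test, so it does not settle whether genes of a class responded differently.

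All 7 differences were below 0, as were 53.8% of those of all genes and 78.7% of those of the longest 10% of genes, and in each of the 7 genes both Gld2 shRNA cultures lay below both scrambled shRNA cultures. That order of the groups was found in 34.5% of all genes, in 43.6% of the 4350 genes at or above the 70th percentile of array signal, a range that holds all 7, and in 61.7% of the 1448 genes in the longest 10%. The sign depended on the scaling for 3 of the 7. With each array centred on the median of the genes tested, Gabra2 came to 0.01 and Gabra5 to 0.03. With the length trend removed, Gabra2 came to 0.05, Gabra5 to 0.06 and Gabrb1 to 0.01. The median difference of the 7 genes was -0.16, against -0.02 over all genes.

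Differences varied with gene length over the whole array, and the GABA-A subunit genes are long. Their genomic spans in the RefSeq table of assembly GRCr8 ran from 76.9 kb for Gabra4 to 623 kb for Gabrg3, against a median of 18.0 kb over all genes. All but Gabra4 belonged to the longest 10% of genes, of at least 109 kb. Among those genes the median difference was -0.12, and 8.43% of genes were called lower and 0.207% higher. With the length trend removed, the median of the 7 genes was -0.01, with 0.0036 over all genes. Gabrg3 then stood at -0.41 (limma, adjusted p = 0.0251) and Gabrb2 at -0.32 (limma, adjusted p = 0.0477), so both kept their calls, while the other 5 lay between -0.08 and 0.06. Gabrb1, of 484 kb, and Gabra3, of 242 kb, are longer than Gabrb2, of 220 kb, and had the smaller differences given above. In turn Gabrg3, the longest of the 7 genes, had the lowest difference. The part of gene length in the subunit differences was not tested.

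**Figure D3:**
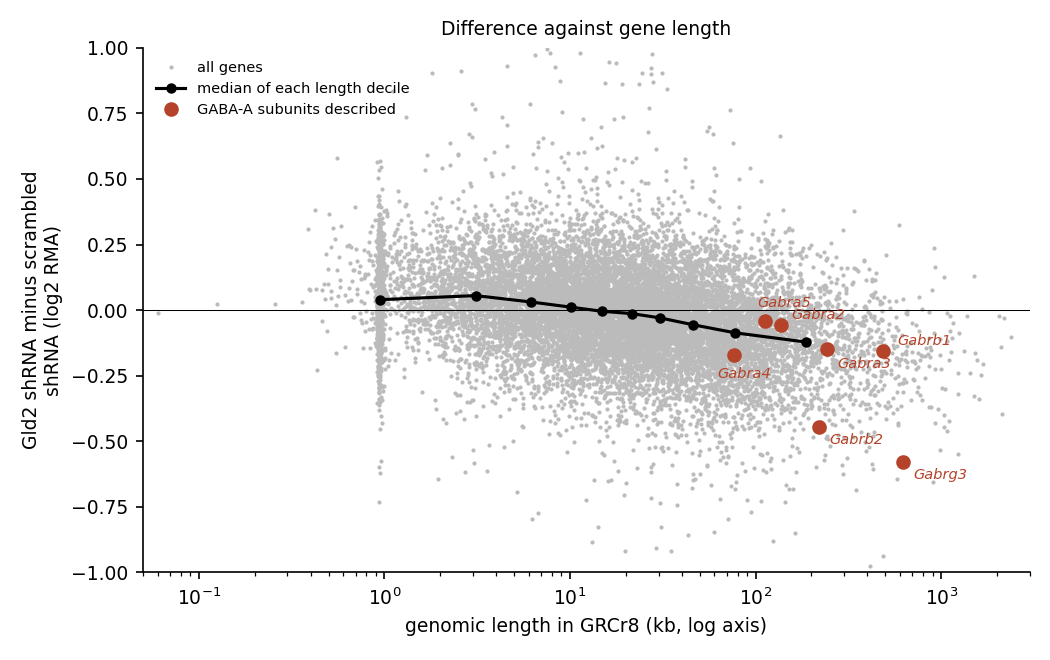
Log2 difference, Gld2 shRNA minus scrambled shRNA (vertical axis), against genomic length (horizontal log axis, kb) for all genes with a length (grey), the median of each length decile (black line) and the 7 subunit genes (red). The decile medians go from 0.04 in the shortest decile to -0.12 in the longest, Gabrg3 and Gabrb2 lie well below the line, and 77 genes fall outside the axes.

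GABA-A subunit genes sit in clusters in the genome, and log2 differences are given here beside those of their neighbours. In the RefSeq table, Gabrg3 (-0.58) and Gabra5 (-0.04) are next to each other, 17.7 kb apart. Gabrb1 (-0.16) and Gabra4 (-0.17) are next to each other, 26.8 kb apart, in the cluster that also holds Gabra2 (-0.06) and Gabrg1, a gamma subunit gene at -0.24 that did not pass (limma, adjusted p = 0.226). Gabrb2 lies next to Gabra6, whose alpha 6 subunit is typical of cerebellar granule cells, and Gabra6 was at -0.33 (limma, adjusted p = 0.0675). Outside the family, the measured neighbours were Oca2, beside Gabrg3, at -0.12 and Commd8, beside Gabrb1, at -0.0033. The adjusted p by limma was 0.418 for Oca2 and 0.980 for Commd8. Gabra6 and Oca2 were dim, at percentiles 10.2 and 20.7 of array signal. No test of the difference between neighbours was run beyond the pairs above.

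Stretches of 250 bases before the start of the genes are shown for the called genes Gabrb2 and Gabrg3 and for Gabrb1, the other beta gene, because these 3 carry the contrasts above. The sequences are from RefSeq, build GRCr8, in which 6 of the 7 genes were matched, all but Gabra2. They run 5′ to 3′ along the gene, at chr10:27439543-27439792 on the plus strand for Gabrb2, chr14:36902894-36903143 on the minus strand for Gabrb1 and chr1:117382458-117382707 on the minus strand for Gabrg3. Each of the 3 windows lies inside the annotated span of its gene, which in that table begins further upstream. Capitals mark TGCGCATGCGC, the longest run of letters that the windows of the beta genes share, found by comparing the letters of the windows. It holds the palindrome that the transcription factor NRF-1 is known to bind.
Gabrb2: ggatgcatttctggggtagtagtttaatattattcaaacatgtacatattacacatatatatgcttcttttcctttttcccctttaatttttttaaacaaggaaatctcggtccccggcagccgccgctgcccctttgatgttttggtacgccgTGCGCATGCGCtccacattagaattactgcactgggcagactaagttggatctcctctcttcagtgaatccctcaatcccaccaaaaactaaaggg
Gabrb1: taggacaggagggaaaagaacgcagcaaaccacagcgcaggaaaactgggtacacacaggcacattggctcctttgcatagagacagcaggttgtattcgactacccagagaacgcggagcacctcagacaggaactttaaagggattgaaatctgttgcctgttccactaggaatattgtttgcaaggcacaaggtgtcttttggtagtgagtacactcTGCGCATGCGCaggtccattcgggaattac
Gabrg3: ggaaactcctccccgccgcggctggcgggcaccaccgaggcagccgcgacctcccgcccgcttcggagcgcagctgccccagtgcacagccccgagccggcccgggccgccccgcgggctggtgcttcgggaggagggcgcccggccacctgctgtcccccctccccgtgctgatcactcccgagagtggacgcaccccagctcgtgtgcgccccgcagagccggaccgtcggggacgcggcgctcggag
The run of 11 letters, on either strand, occurs in 0.535% of 33469 such windows, and among the 6 matched genes it occurs in Gabrb1 and Gabrb2, for which it was chosen. It begins 96 bases before the start in Gabrb2 and 30 bases before it in Gabrb1. The windows of the called genes are unlike in base composition, with 43.2% G and C and 8 CG dinucleotides in Gabrb2 and 78% and 33 in Gabrg3, whereas Gabrb1 has 49.2% and 8. TATAAA, the TATA box, was searched on both strands and is in 12.9% of all windows and, of the 6, in that of Gabra3, which does not hold the shared run. A match is a description of the letters, not evidence of binding.

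Other genes of inhibitory transmission were counted in 7 lists. In all, 54 of 66 listed genes were measured, of which 1 was lower, 1 higher and 52 did not pass, against 2.41% lower and 1.69% higher of all genes, with a median difference of -0.04. At an unadjusted p under 0.05, 13 were lower and 3 higher, against 16.2% and 9.24% of all genes. With a level-dependent prior variance, limma called 10 lower and 4 higher, against 11.1% and 4.28% of all genes in that fit.

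Of the other GABA-A and rho subunit genes, 9 were measured and limma called 0 in either direction, also with that prior, with a median of 0.01. At an unadjusted p under 0.05, Gabra6 (-0.33), Gabrq, of the theta subunit (-0.26), and Gabrr1, of a rho subunit (0.28), were set apart, with adjusted p-values by limma of 0.0675, 0.180 and 0.0968. These genes were dim, with mean levels of 6.53, 7.81 and 7.71 log2 units. They stood at percentiles 10.2, 27.5 and 25.7 of array signal, whereas the subunit genes described first all lay above the 70th. Without Gld2 shRNA replicate 1 these and Gabrg1 were called in their own directions, with adjusted p by limma of 0.0409 for Gabra6, 0.0272 for Gabrq, 0.0285 for Gabrr1 and 0.0267 for Gabrg1. In that fit 9.7% of all genes were called lower and 8.85% higher, more than with all 4 cultures. Gabrd, of the delta subunit that pairs with alpha 4 outside the synapse, was at -0.04.

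Of the genes of GABA synthesis, transport and breakdown, 7 were measured and Aldh5a1 fell. At an unadjusted p under 0.05, Abat, Aldh5a1, Gad2 and Slc6a13 were lower and 0 were higher, and 4 were called lower with the level-dependent prior variance, against the shares of all genes given above. Aldh5a1 encodes succinic semialdehyde dehydrogenase, which completes the breakdown of GABA. It stood at 10.66 and 10.51 log2 units in the Gld2 shRNA cultures, against 11.08 and 11.05 in the scrambled shRNA cultures, and the groups lay apart. The difference was -0.48 with a 95% confidence interval from -0.66 to -0.30 (limma, adjusted p = 0.0317). The call was lost without Gld2 shRNA replicate 2 (limma, adjusted p = 0.0650), without scrambled shRNA replicate 1 (0.286) and without scrambled shRNA replicate 2 (0.224), and also with all probe sets tested, without moderation or with each array centred on the median of the genes tested. Abat, the GABA transaminase that acts before it, was at -0.19 and did not pass (limma, adjusted p = 0.137, and 0.00518 with the level-dependent prior variance). The GABA-synthesising enzyme Gad2 was at -0.24 (limma, adjusted p = 0.0853, and 0.00041 with that prior), Gad1 at 0.01 and the vesicular transporter Slc32a1 at -0.07. The list had a median of -0.19.

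At the inhibitory postsynapse, 8 scaffold and adhesion genes were measured and limma called 0, with 1 lower at an unadjusted p under 0.05 and 1 called with that prior, and a median of -0.11. Gphn, whose product gephyrin is the main scaffold beneath these receptors, was at 0.01, with a 95% confidence interval from -0.14 to 0.16. The adhesion gene Nlgn2 was at -0.02, the receptor partner Lhfpl4 at -0.12 and Mdga1, which restrains neuroligin, at -0.29 (limma, adjusted p = 0.0908). Of 16 genes of receptor assembly and traffic limma called 0, with 2 lower and 1 higher at an unadjusted p under 0.05 and 2 lower and 3 higher called with that prior, and their median was -0.02. Of all genes, 16.2% were lower and 9.24% higher without adjustment, and 11.1% and 4.28% were called with that prior. Gabarap, Gabarapl1 and Gabarapl2, a family named for binding the gamma 2 subunit, were at 0.14, 0.15 and 0.10, with both Gld2 shRNA cultures above both controls in each, an order found in 24% of all genes. Hap1, which aids the return of receptors to the surface, was at 0.21, while the motor adaptor Trak1 was at -0.25 and Arfgef2 at -0.22. None of these passed, with adjusted p by limma of 0.113, 0.0985 and 0.114.

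The GABA-B receptor genes, which encode the slow metabotropic receptor, were at -0.04 for Gabbr1 and -0.20 for Gabbr2, and limma called 0 of the 3 measured genes of that list, with a list median of -0.04. Gabbr2 was under 0.05 without adjustment and was called with that prior. Of 5 chloride transporter genes, Slc12a7, the potassium-chloride cotransporter KCC4, rose, where 1.69% of all genes were called higher. The differences of the other 4 were below 0. Among them Clcn2, at -0.31, was under 0.05 without adjustment but did not pass (limma, adjusted p = 0.123). Clcn2 was called lower with that prior. Slc12a7 stood at 9.57 and 9.45 log2 units in the Gld2 shRNA cultures, against 9.0007 and 9.01 in the scrambled shRNA cultures, a difference of 0.50 (limma, adjusted p = 0.0223). Its call was lost without scrambled shRNA replicate 1 (limma, adjusted p = 0.234) and without scrambled shRNA replicate 2 (0.199), and also with all probe sets tested or without moderation. The neuronal chloride extruder Slc12a5 was at -0.04 and the chloride importer Slc12a2 at -0.12, and the list median was -0.07. Of 6 glycine receptor and transporter genes limma called 0, and the median was -0.05. At an unadjusted p under 0.05, 2 were lower, Glra3 (-0.27) and Glrb (-0.18), and 1, Glrb, was called with that prior. Of all genes, 16.2% were lower without adjustment and 11.1% were called lower with that prior.

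**Figure D4:**
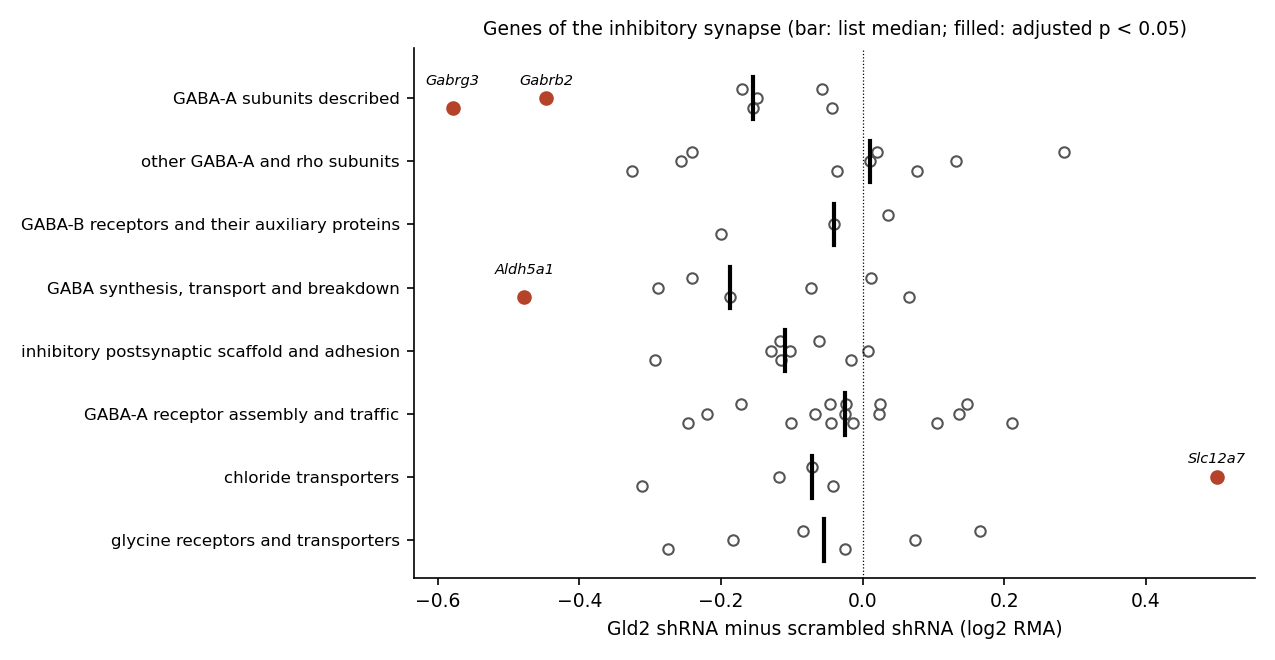
Log2 difference, Gld2 shRNA minus scrambled shRNA (horizontal axis), of each measured gene in the 7 GABA-A subunit genes described and in 7 lists of inhibitory synapse genes, with list medians as bars and genes at an adjusted p under 0.05 filled. Gabrg3, Gabrb2 and Aldh5a1 are filled on the lower side and Slc12a7 on the higher side.

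Receptors of excitatory synapses were counted in the same way. Of 11 NMDA and AMPA receptor subunit genes, 3 were lower and 0 higher, and the median was -0.18, next to the 2 lower, 0 higher and median of -0.16 of the 7 GABA-A genes. Of all genes 2.41% were lower, and of the longest 10% of genes 8.43%, and the median length of the 11 genes was 199.6 kb. At an unadjusted p under 0.05, 6 of the 11 were lower, and 7 were called lower with the level-dependent prior variance, in which 11.1% of all genes were. Whether the lists differ was not tested.

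Cell type markers were counted in the same way, next to 2.41% lower and 1.69% higher of all genes, or 16.2% and 9.24% without adjustment. Markers of inhibitory neurons, which make GABA, had a median difference of -0.15 with 0 of 9 called by limma and 3 lower at an unadjusted p under 0.05, and their mean level was 11.20 and 11.16 log2 units in the Gld2 shRNA cultures, against 11.28 and 11.27 in the scrambled shRNA cultures. General neuron markers had a median of -0.04 with 0 of 8 called by limma and 2 lower without adjustment, at mean levels of 12.59 and 12.60 in the Gld2 shRNA cultures, against 12.67 and 12.65 in the scrambled shRNA cultures. Excitatory neuron markers were at -0.08 with 0 of 5 called by limma and 1 lower without adjustment, and their mean level was 11.995 and 11.98 in the Gld2 shRNA cultures, against 12.09 and 12.05 in the scrambled shRNA cultures. Astrocyte markers had a median of 0.06 with 1 of 8 lower and 5 of 8 differences above 0, and their mean level was 12.065 and 12.02 in the Gld2 shRNA cultures, against 12.04 and 12.07 in the scrambled shRNA cultures. The medians were 0.12 for microglia (0 of 8 called by limma, 1 higher without adjustment), 0.02 for the oligodendrocyte lineage (1 of 6 higher, and another lower without adjustment) and 0.07 for dividing cells (0 of 6 called, 1 lower and 1 higher without adjustment). With no detection calls, it cannot be said which markers were absent. The part of cell type make-up in the subunit differences was not tested.

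The genes whose pattern over the 4 arrays was most like the mean pattern of the 7 subunit genes were Zfc3h1, Eml4, Nfat5, Med13 and Ubl3. Likeness was the Euclidean distance between gene-centred log2 values, which was 0.0116 to 0.0154 for these genes. The subunit genes themselves lay farther from their mean, from 0.0747 for Gabra4 to 0.354 for Gabrg3. Since the 5 genes were picked as the nearest of the whole array, this comparison does not show how alike the subunit genes are. The differences of the 5 genes ran from -0.24 to -0.22, and none of the 5 passed the test, with adjusted p-values by limma from 0.0969 for Nfat5 to 0.110 for Med13.

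**Figure D5:**
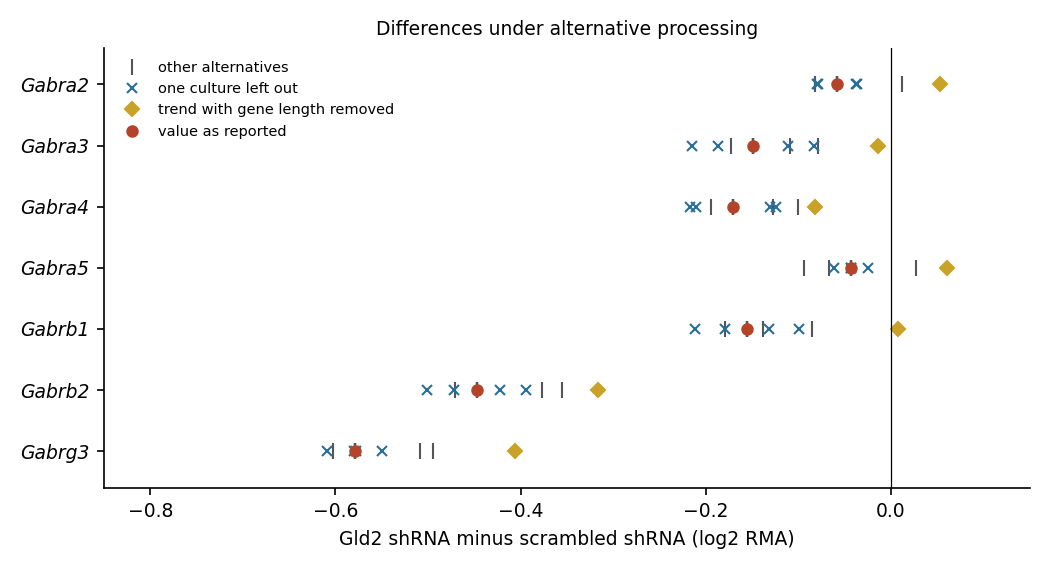
Log2 difference, Gld2 shRNA minus scrambled shRNA (horizontal axis), of the 7 subunit genes as reported (red points), with the length trend removed (yellow diamonds), with one culture left out (blue crosses) and under the other alternatives (grey ticks). Gabrg3 runs from -0.61 to -0.41 and Gabrb2 from -0.50 to -0.32, and Gabra2, Gabra5 and Gabrb1 cross 0 in some settings.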

How the data were processed

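The arrays measured poly(A) RNA of 2 Gld2 shRNA and 2 scrambled shRNA cultures, grouped by the treatment label. The authors deposited log2 values, for which the submitters' processing notes name RMA and affy. The sources used here give neither settings nor versions nor probe set definitions. RMA corrects background and brings arrays to a common distribution, which can mask a shift shared by most genes. No further normalization was applied.

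Of 28826 probe sets, 15209 had 1 gene symbol, 306 several and 13311 none, and these gave 14497 genes, with the probe set of the highest mean taken for the 494 genes with more than 1. Groups were compared with lmFit and eBayes of limma 3.58.1 (R 4.3.3) in two-sided tests, adjusted over all genes after Benjamini and Hochberg at a threshold of 0.05, on 2 residual and 3.96 prior degrees of freedom. Alternatives in prior, filters, scaling, probe sets, blocking and cultures are in the closing section. Genomic lengths came from RefSeq, GRCr8, missing for 25 genes, with a lowess span of 0.3 for the trend. The members and lists were chosen with earlier results of these data known. The rule for naming took the 7 members, Tent2, called genes, the 4 smallest p-values of each list, genes next to members and the 5 nearest patterns. Not all genes taken by this rule are described above. Genes outside the rule are named for their role or after their values were seen.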

Additional observations from a re-analysis of the deposited data

How the results depend on the processing

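Gabrb2 and Gabrg3 stayed below 0 in all 15 alternatives, of which 3 ended the call of Gabrg3 and 6 that of Gabrb2. Against 2 lower subunit genes as reported, the count was 4 with a level-dependent prior variance, 1 with arrays centred on the median of the genes tested (added after the data were seen), 1 with all probe sets tested, 0 without moderation and 0 to 2 without 1 culture. All genes lower or higher numbered 1611 and 621 with that prior, 1367 and 558 with arrays centred on their medians, and 0 and 1 without moderation. Lower genes numbered 949 and 1287 without dim genes (under the 25th percentile or the median), 94 with centring on the genes tested, and 116 with all probe sets, and cyclic loess gave 370 higher. Without 1 culture there were 3 to 1406 lower and 82 to 1283 higher genes. Of the inhibitory synapse lists, lower and higher genes numbered 10 and 4 with that prior, 5 and 2 or 8 and 2 without dim genes, 9 and 2 with array medians centred, 0 and 0 with all probe sets or without moderation, and 0 to 6 and 0 to 2 without 1 culture. There were 0 lower with centring on the genes tested and 2 higher with cyclic loess. The sign turned for Gabra2 (0.012) and Gabra5 (0.027) with centring on the genes tested, which also turned Gabbr1 (0.029), and for Gabra2 (0.053), Gabra5 (0.060) and Gabrb1 (0.0082) with the length trend removed. Slc12a4 turned with cyclic loess (0.035) and ran from -0.15 to 0.0033 without 1 culture. Gabra2 minus Gabra5, a difference of -0.01, came to 0.012 with cyclic loess and to -0.054 to 0.024 without 1 culture. The cause of these changes was not tested in any setting.

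The final digits of the titles were used as a replicate block, although no label says that they mark a shared preparation. The correlation of the deviations of same-numbered arrays from their group means was 0.143. The replicate block gave 332 lower and 233 higher genes, and the same 2 subunit genes were lower. Where 1 culture was left out, the remaining one took its spread from the group still holding 2. With 2 cultures a group, the spread of a gene rests largely on the moderation across genes, and signal over background is unknown.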

Other observations

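Among the cell type markers, 2 genes passed the test, chosen here after their values were seen. Cnp, an enzyme of myelinating cells, stood at 11.14 and 11.02 log2 units in the Gld2 shRNA cultures, against 10.54 and 10.53 in the scrambled shRNA cultures, a difference of 0.54 (limma, adjusted p = 0.0169). Gja1, the gap junction protein of astrocytes, had 11.56 and 11.49 log2 units in the Gld2 shRNA cultures, against 11.89 and 11.93 in the scrambled shRNA cultures, a difference of -0.39 (limma, adjusted p = 0.0351). The other markers of both cell types did not pass, and some had differences of the opposite sign. Mbp, a myelin protein, was at -0.29 with both Gld2 shRNA cultures below both controls (limma, adjusted p = 0.0798), and Mog was at -0.02. Of the 8 astrocyte markers, 5 had differences above 0, among them Gfap at 0.10 and S100b at 0.11.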
